A study of Mus musculus with 10 samples.

Results

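The mitochondrial ribosomal protein genes were the 78 protein-coding genes, of 40501 gene identifiers in the deposited count table, whose symbols begin with Mrpl or Mrps and a digit. They carry 77 symbols, since Mrps23 stands under 2 identifiers. By the place of their proteins in the ribosome, 50 belong to the large subunit and 27 to the small subunit. The last one, Mrps36, keeps a ribosomal name although its protein is a subunit of the 2-oxoglutarate dehydrogenase complex. Mrps18a and Mrps30 have small-subunit names but sit in the large subunit, and were counted there.

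The samples were inguinal white fat, a subcutaneous depot, of 10 male mice, profiled by RNA-seq with 1 library per labelled sample. The 5 PexRAP-AKO mice (replicates 1, 2, 3, 5 and 6) were Cre-positive and lacked PexRAP in fat. The 5 Control mice (replicates 2, 3, 5, 7 and 8) were Cre-negative. Every mouse ate chow, and the labels give 8 weeks both as the length of the diet and as the age, so the age at harvest is uncertain. Neither the strain, nor the promoter driving Cre, nor whether Control mice carried the conditional allele was given in the sources used here. PexRAP is the product of Dhrs7b, a reductase in the peroxisomal route to ether lipids. The design asks which transcripts differ in fat when this enzyme is deleted there.

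Mitochondria keep a ribosome of their own, which translates the few mRNAs of mitochondrial DNA into core subunits of the respiratory chain. Its RNAs come from mitochondrial DNA, while all of its proteins are encoded in the nucleus, made in the cytosol and imported. Part of them descend from bacterial ribosomal proteins, and part are additions that bacteria lack. In fat, mitochondria are most abundant in thermogenic brown and beige adipocytes.

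Library totals ran from 11274865 to 19881168 counts, and the members took 0.1917% to 0.2388% of counts in Control and 0.2271% to 0.2591% in PexRAP-AKO. Dhrs7b, the deleted gene, was lower in all 5 PexRAP-AKO libraries, at 19.9 ± 2.26 CPM (counts scaled to library size; SD, n = 5), than in all 5 libraries of Control mice, at 82.4 ± 12.8 CPM (SD, n = 5), with an exact two-sided permutation p of 0.00794. White adipocyte markers were the strongest of the marker lists in each library, at 33202 to 44994 CPM summed over 10 genes. Brown adipocyte and skeletal muscle markers varied widely within each group. PexRAP-AKO replicate 6 had the most T cell, B cell and epithelial marker signal and Control replicate 8 had the most muscle marker signal, so counts were also taken without these libraries.

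Promoter windows of the members were examined because the genes shared their high and low libraries. That sharing was not compared with all genes, and its cause was not tested. RefSeq (GRCm38.p6) gave windows of 250 bases before to 50 bases after the start for 68 of the 77 symbols. They were searched on both strands for the letters of sites known from genes of mitochondrial proteins. NRF1 (GCGCATGCG) and GABPA, of the ETS family (CCGGAAG), are activators of nuclear genes for mitochondrial proteins. The examples are Mrpl20, which had the smallest p of all members, Mrpl10 and Mrps18c, which were also among the 8 smallest, Mrpl22 with both motifs, Mrpl34 with a high level and a large difference, and Mrpl43 with the ETS letters at 2 places. Each stretch lies before the start and outside annotated exons, is read 5′ to 3′ on the strand of its gene, and has NRF1 or ETS letters, where present, in capitals. The Mrpl20 stretch has none, and neither motif was found in the window of Mrpl20.
Mrpl20, chr4:155802788-155802877, plus strand: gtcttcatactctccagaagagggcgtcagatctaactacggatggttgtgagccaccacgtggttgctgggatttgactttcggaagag
Mrpl10, chr11:97041408-97041500, plus strand: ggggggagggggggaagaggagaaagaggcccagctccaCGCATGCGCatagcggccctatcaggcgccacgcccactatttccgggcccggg
Mrps18c, chr5:100798599-100798626, plus strand: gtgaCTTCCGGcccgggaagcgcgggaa
Mrpl22, chr11:58171566-58171660, plus strand: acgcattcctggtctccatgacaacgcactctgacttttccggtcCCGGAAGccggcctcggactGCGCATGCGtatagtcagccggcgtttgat
Mrpl34, chr8:71464844-71464925, plus strand: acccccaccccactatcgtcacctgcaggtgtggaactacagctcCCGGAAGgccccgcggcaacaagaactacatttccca
Mrpl43, chr19:45006447-45006543, minus strand: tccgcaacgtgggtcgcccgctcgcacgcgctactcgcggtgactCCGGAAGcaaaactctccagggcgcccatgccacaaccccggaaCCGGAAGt

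The ETS letters were in the windows of 25 of the 68 members (36.8%), against 8.86% of all 32851 windows in the RefSeq table and 19% of the 10528 tested protein-coding genes with a window. NRF1 letters were found in 7 members (10.3%), against 1.75% of all windows and 3.91% of tested coding genes. YY1 letters (AAGATGGCG), bound by a zinc-finger factor, were found in 8 members (11.8%), against 1.4% and 3.36%. At least 1 of these motifs was in 35 members. The ERR letters (TCAAGGTCA), the site of the estrogen-related receptors, were found in 0 members and in 0.423% of all windows. Of the general promoter elements, GC box letters (GGGCGG) were in 50% of members and 67% of tested coding genes, CCAAT in 38.2% and 42.4%, and TATAAA in 7.35% and 9.01%, differences that were not tested. Member windows had a median GC content of 58.8%, against 52.7% over all windows. It was not computed for the windows of tested coding genes alone. The letters searched are themselves rich in G and C, at 77.8% for NRF1, 71.4% for ETS, 55.6% for YY1 and 100% for the GC box, and shares at matched GC content were not compared. Members with and without the letters differed little in the knockout comparison. The median log2 fold change was 0.27 over 23 tested members with ETS letters and 0.24 over 43 without. It was 0.22 over 7 members with NRF1 letters and 0.25 over 59 without, and 0.29 over 8 with YY1 letters and 0.24 over 58 without. These differences were not tested. A match in a window is a match of letters only, and no factor binding was measured here.

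Members were on 17 chromosomes, with at most 11 on 1 chromosome, 0 of them on X or Y. Of the 78, 75 passed the filter on low counts and were tested. The 3 others were near or at 0 counts. Mrpl53, a large-subunit protein gene, had 0 to 4 counts per library. Mrps23, a small-subunit gene, had 0 to 4 counts under ENSMUSG00000023723 and 0 under ENSMUSG00000098375. A count of 0 allows up to 3 counts in a library, or 0.151 to 0.266 CPM from the deepest to the shallowest library. Mrpl53 shares its locus with Gm42688 on the same strand and Ccdc142os on the opposite strand, and how reads shared by 2 genes were counted was not given in the sources used here. Mrpl33 was not analysed here. A further 5 rows with names of this family are pseudogenes and were left out; none of them exceeded 3 counts in any library.

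Nearly all members were slightly higher in PexRAP-AKO, and none of the 75 passed the threshold in either direction. The log2 fold change was positive for 74 of 75 members, against 49.8% of all 14913 genes tested, and it had a median of 0.24 (quartiles 0.16 and 0.30) over the members and -0.00 over all genes. The median corresponds to 1.18-fold. No member reached 1.5-fold (count 0), and 31 exceeded 1.2-fold. At or below a log2 fold change of 0.26, near 1.2-fold, lay 58.7% of members and 88.6% of all genes. The members ranged from -0.02 for Mrps6 to 0.51 for Mrps36. In edgeR's quasi-likelihood test, 0 of 75 members had a Benjamini-Hochberg adjusted p under 0.05, where 15 of all genes (0.101%) did. At an adjusted p under 0.1, 1 member, Mrpl20, was called higher, against 0.543% of all genes. At an unadjusted p under 0.05, 51 of 75 members (68%) were higher, against 9.01% of all genes, and 0 were lower, against 6.44%. DESeq2 called 12 of the 72 members with an adjusted p higher, against 3% of all genes with one. limma voom called 0 members, and 1 with sample quality weights.

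Library by library, the same offset was seen. The mean log2 CPM over the 75 members was 4.59, 4.72, 4.70, 4.56 and 4.43 in Control replicates 2, 3, 5, 7 and 8. In PexRAP-AKO replicates 1, 2, 3, 5 and 6 it was 4.75, 4.97, 4.84, 4.92 and 4.74. With TMM scaling each PexRAP-AKO library was thus above each Control library, though Control replicate 3 and PexRAP-AKO replicate 6 were close. For small-subunit genes alone the order was not complete, with 4.67 in Control replicate 3 and 4.66 in PexRAP-AKO replicate 6. As a share of all counts, without TMM, the order was not complete: the members took 0.2388% and 0.2283% in Control replicates 5 and 3 and 0.2271% in PexRAP-AKO replicate 1. The highest of the 10 libraries was a PexRAP-AKO library for 73 members, and the lowest a Control library for 73. Members shared their extremes: 47 were highest in PexRAP-AKO replicate 2 and 15 in replicate 5, and 55 were lowest in Control replicate 8. These counts of highest and lowest libraries were not taken over all genes. Without Control replicate 8, the count at an unadjusted p under 0.05 fell from 51 to 32, against 6.53% of all genes, and the median log2 fold change was 0.20. Without Control replicate 8 and PexRAP-AKO replicate 6 together, the count was 40, against 7.13% of all genes, and the median 0.23.

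**Figure D1:**
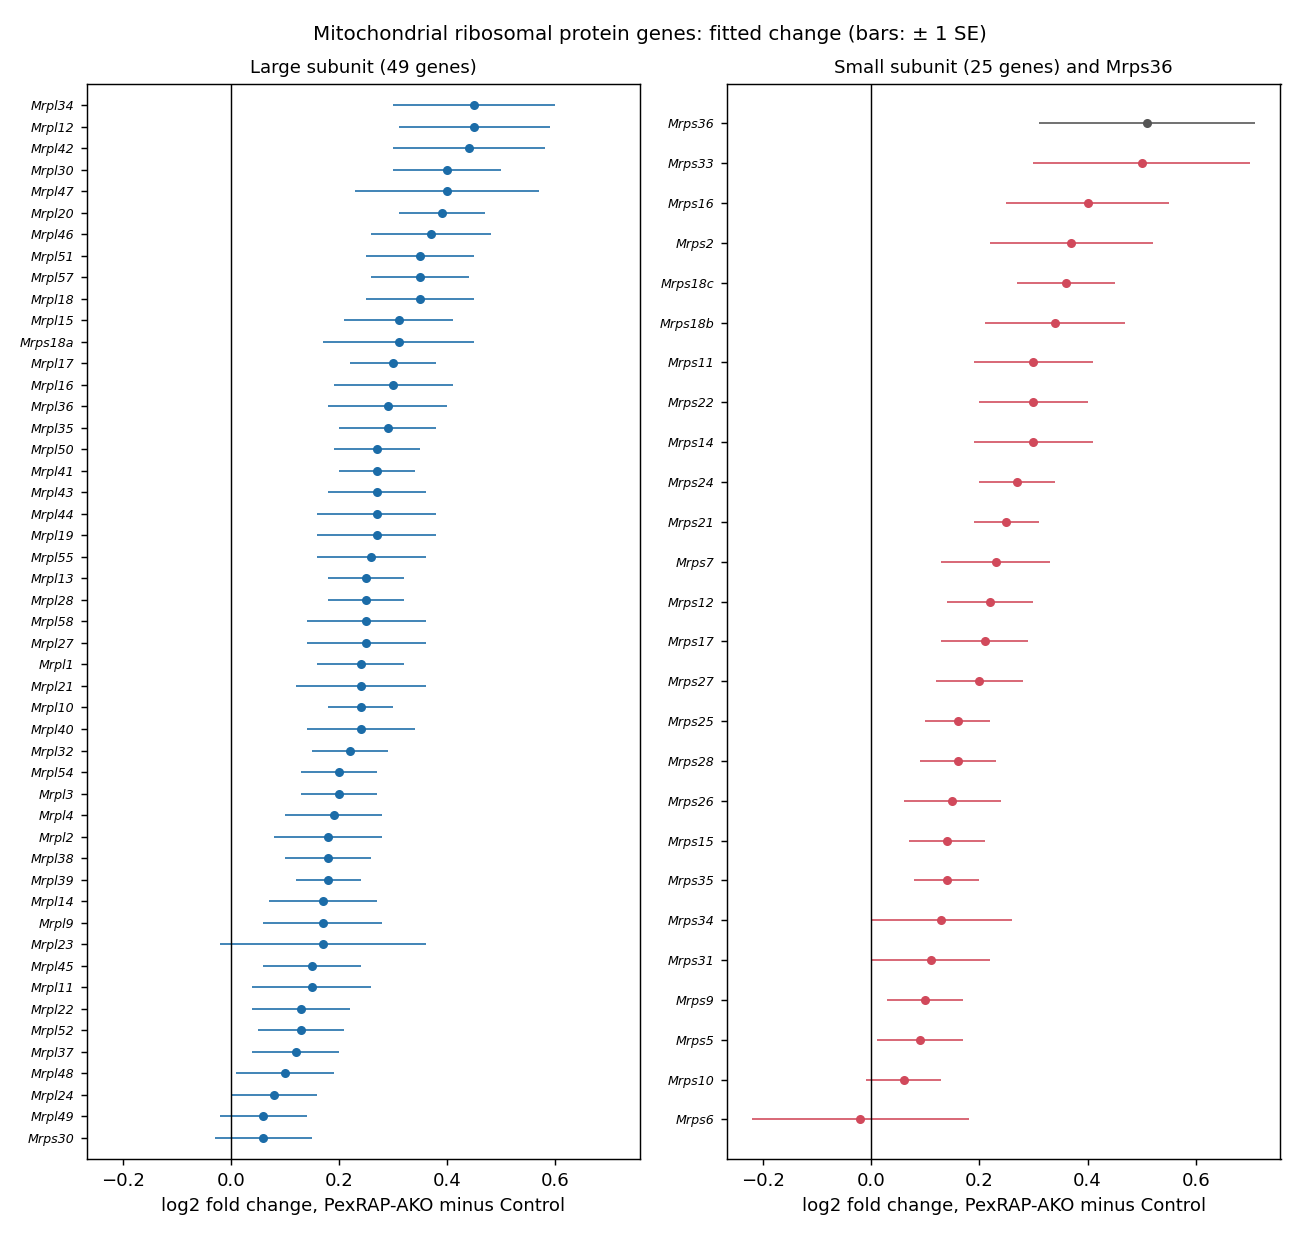
Fitted log2 fold change (PexRAP-AKO minus Control, x axis) of the 75 tested members, one per line, sorted by size. Large-subunit genes are in the left panel and small-subunit genes with Mrps36 (grey) in the right; points are edgeR estimates, bars ± 1 SE. With TMM scaling all points but Mrps6 (-0.02) lie to the right of 0, between 0.06 and 0.51; scaled by library total alone, 4 of 75 were negative.

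The groups did not overlap for 10 of 75 members (13.3%), each with every PexRAP-AKO library above every Control library, where 2.08% of all genes had that order. These members were Mrpl20, Mrps21, Mrps18c, Mrpl57, Mrpl13, Mrpl10, Mrpl41, Mrpl32, Mrpl46 and Mrps25. With single libraries left out the number ran from 10 to 26, and a smaller group can hardly lower such a count. It was 26 without Control replicate 3, 19 without PexRAP-AKO replicate 1 and 17 without PexRAP-AKO replicate 6. Over all genes these smaller sets gave 4.17%, 4.06% and 3.56%, so the share rose there too. When counts were scaled by library total alone, 2 members and 0.845% of all genes had groups that did not overlap. For 53 of 75 members, all 5 PexRAP-AKO libraries exceeded the Control mean, a count that was not taken over all genes.

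Among large-subunit proteins, Mrpl20 came nearest to the threshold. Mrpl20 (ENSMUSG00000029066, chromosome 4, 155802878 to 155809975, GRCm38, plus strand) encodes a protein with a bacterial homolog that takes part in assembly of the large subunit. Its level was 77.7, 73.7, 83.4, 69.2 and 73.0 CPM in Control replicates 2, 3, 5, 7 and 8, and 86.7, 101, 111, 109 and 87.3 CPM in PexRAP-AKO replicates 1, 2, 3, 5 and 6 (the order used for every gene). The lowest PexRAP-AKO library, replicate 1, was above the highest Control library, replicate 5. The means were 75.4 ± 5.39 and 99.1 ± 11.7 CPM (SD, n = 5 each). The log2 fold change was 0.39 (SE 0.08), with an edgeR adjusted p of 0.0957. It was 0.00335 in DESeq2 and 0.0378 in limma voom with sample quality weights. In edgeR the adjusted p was 0.0531 with 1 surrogate variable added and 0.351 with a brown adipocyte marker score as covariate. The log2 fold change ran from 0.28 to 0.45 over the alternatives. No other annotated gene overlaps Mrpl20.

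Mrpl30, a large-subunit protein with a bacterial homolog (chromosome 1, 37890477 to 37898535), had a similar difference with more spread. Control libraries held 52.1, 66.4, 63.0, 53.3 and 46.3 CPM and PexRAP-AKO libraries 63.9, 78.9, 76.6, 82.9 and 69.3 CPM. Only Control replicate 3 reached into the range of PexRAP-AKO. The log2 fold change was 0.40 (SE 0.10, edgeR adjusted p = 0.143). Mrpl57 (chromosome 14, 57826234 to 57829296), a short protein that bacteria lack, held 28.1, 31.2, 31.6, 25.7 and 25.5 CPM in Control and 32.1, 41.4, 35.5, 38.3 and 34.3 CPM in PexRAP-AKO. Its groups were adjacent but did not overlap. The log2 fold change was 0.35 (SE 0.09, edgeR adjusted p = 0.133).

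Mrpl10 and Mrpl12 belong to the stalk of the large subunit, where translation factors dock. Mrpl10 (chromosome 11, 97041560 to 97049213) held 41.0, 43.1, 46.7, 43.0 and 39.8 CPM in Control and 48.6, 56.8, 49.8, 48.0 and 49.4 CPM in PexRAP-AKO. The groups did not overlap, and PexRAP-AKO replicate 2 was the highest of its group. The fitted log2 difference was 0.24 (SE 0.06, edgeR adjusted p = 0.144). Mrpl12 (chromosome 11, 120484613 to 120489065), the stalk protein that also binds the mitochondrial RNA polymerase, had 55.0, 57.2, 57.2, 41.2 and 40.0 CPM in Control and 54.2, 79.2, 73.7, 75.9 and 61.2 CPM in PexRAP-AKO. PexRAP-AKO replicate 1 was within the Control range, and Control replicates 7 and 8 were low. For Mrpl12 the estimate was 0.45 (SE 0.14, edgeR adjusted p = 0.178). Both genes overlap a gene on the opposite strand, Gm11574 and Gm16755, and without stated strand such reads cannot be told apart.

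Mrpl13 and Mrpl41 had small differences with little spread. Mrpl13, with a bacterial homolog (chromosome 15, 55534094 to 55557748, opposite Mtbp), was at 28.1, 29.4, 29.1, 29.1 and 27.1 CPM in Control and at 34.6, 37.5, 32.1, 35.0 and 30.4 CPM in PexRAP-AKO. Mrpl41, a protein that bacteria lack (chromosome 2, 24974117 to 24975098), was at 24.1, 21.3, 23.7, 20.3 and 19.8 CPM in Control and at 28.3, 26.0, 27.5, 25.6 and 24.9 CPM in PexRAP-AKO. Neither gene's groups overlapped. The log2 fold changes were 0.25 (SE 0.07, edgeR adjusted p = 0.143) and 0.27 (SE 0.07, edgeR adjusted p = 0.151).

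In the small subunit, Mrps21 and Mrps18c had the smallest p. Mrps21 (ENSMUSG00000054312, chromosome 3, 95862634 to 95871519, minus strand) encodes a short protein with a bacterial homolog. It stood at 39.5, 43.5, 41.9, 37.6 and 38.2 CPM in Control and at 46.0, 49, 48.4, 50.6 and 44.5 CPM in PexRAP-AKO. The groups came nearest at Control replicate 3 and PexRAP-AKO replicate 6, and did not overlap. Its log2 fold change was 0.25 (SE 0.06, edgeR adjusted p = 0.125, DESeq2 adjusted p = 0.0207). The adjusted p was 0.0574 in limma voom with sample quality weights. In edgeR it was 0.056 with 1 surrogate variable and 0.456 with the brown adipocyte marker score.

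Mrps18c is one of 3 mammalian proteins related to a single bacterial protein, and the 3 now occupy different places. Mrps18c takes the bacterial place in the small subunit, Mrps18b lies elsewhere in the small subunit, and Mrps18a is in the large subunit. Mrps18c (chromosome 5, 100798627 to 100804471) had 14.5, 16.3, 15.9, 13.8 and 13.3 CPM in Control and 18.6, 21.6, 19.9, 17.7 and 17.1 CPM in PexRAP-AKO, with no overlap. Mrps18b (chromosome 17, 35910379 to 35916389) had 11.8, 15.3, 15.7, 14.1 and 11.8 CPM against 13.7, 20, 19.7, 18.9 and 15 CPM. Mrps18a (chromosome 17, 46110986 to 46128910) had 36.1, 42.6, 47.1, 35.6 and 29.6 CPM against 36.5, 53.6, 52.7, 53.5 and 41.9 CPM. In both Mrps18b and Mrps18a, 3 of 5 PexRAP-AKO libraries, replicates 2, 3 and 5, exceeded every Control library. The log2 fold changes were 0.36 (SE 0.09) for Mrps18c, 0.34 (SE 0.13) for Mrps18b and 0.31 (SE 0.14) for Mrps18a, with edgeR adjusted p of 0.125, 0.244 and 0.317.

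**Figure D2:**
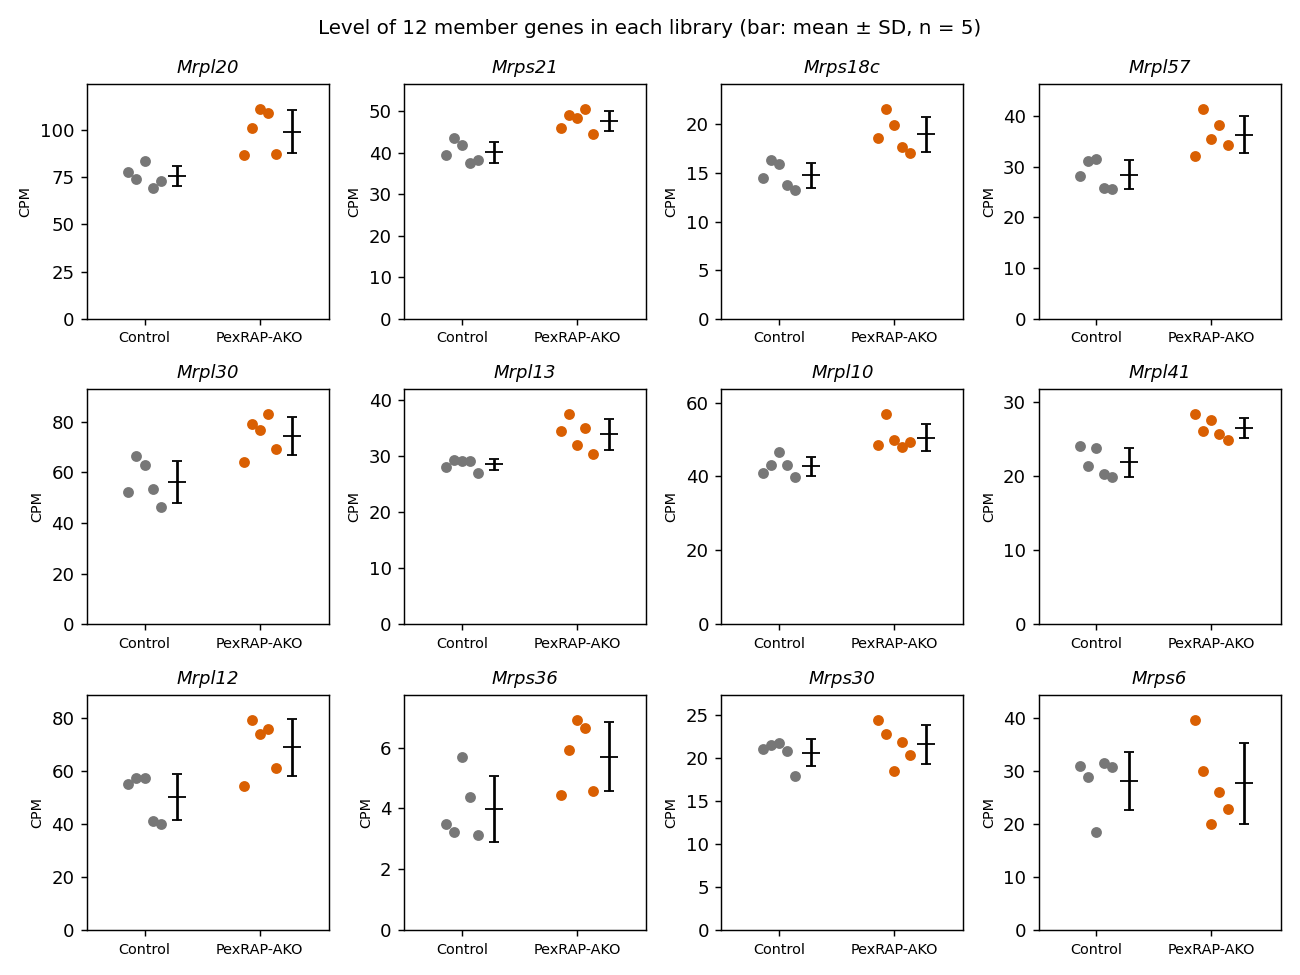
Level (CPM, y axis from 0) of 12 members in each of 5 Control (grey) and 5 PexRAP-AKO (orange) libraries, 1 point per library; the black mark is the group mean ± SD. In Mrpl20, Mrps21, Mrps18c, Mrpl57, Mrpl13, Mrpl10 and Mrpl41 every orange point is above every grey one, while in Mrps30 and Mrps6 the groups overlap.

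Mrps6 was the only member with a negative estimate. It encodes a small-subunit protein with a bacterial homolog (ENSMUSG00000039680, chromosome 16, 92058270 to 92112227, plus strand). Levels were 30.9, 28.8, 18.4, 31.4 and 30.7 CPM in Control and 39.6, 30.0, 19.9, 25.9 and 22.8 CPM in PexRAP-AKO. Control replicate 5 was low within its group, PexRAP-AKO replicate 1 was the highest of all 10, and the groups overlapped. The log2 fold change was -0.02 (SE 0.20, edgeR adjusted p = 0.977), and leaving out single libraries moved it between -0.18 and 0.08. Slc5a3, the sodium/myo-inositol cotransporter gene, lies in the Mrps6 locus on the same strand. It was chosen after values were seen, and had 307, 196, 122, 311 and 253 CPM in Control and 273, 180, 103, 143 and 134 CPM in PexRAP-AKO. Like Mrps6, Slc5a3 was lowest within Control in replicate 5 and lowest within PexRAP-AKO in replicate 3. The part of shared reads in the Mrps6 values was not tested.

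Mrps36, the subunit of the 2-oxoglutarate dehydrogenase complex, had the highest estimate of all 75. It was scarce, with 39 to 113 counts per library. Control libraries held 3.49, 3.22, 5.68, 4.39 and 3.13 CPM and PexRAP-AKO libraries 4.45, 5.92, 6.92, 6.65 and 4.59 CPM. Control replicate 5 reached into the PexRAP-AKO range. On the log2 scale the difference was 0.51 (SE 0.20, edgeR adjusted p = 0.252). Mrps30, in the large subunit despite its name, lay at the other end. It had 21, 21.5, 21.7, 20.8 and 17.9 CPM in Control and 24.4, 22.8, 18.4, 21.8 and 20.3 CPM in PexRAP-AKO, with overlapping groups and a log2 fold change of 0.06 (SE 0.09, edgeR adjusted p = 0.778). Mrpl58, a peptidyl-tRNA hydrolase built into the large subunit, had 27.8, 30.1, 30.7, 22.7 and 23.1 CPM against 28.7, 32.9, 34.4, 35.9 and 28.4 CPM. Its log2 fold change was 0.25 (SE 0.11, edgeR adjusted p = 0.293), with PexRAP-AKO replicates 1 and 6 inside the Control range.

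Neither subunit nor ancestry set members apart by much. The median log2 fold change was 0.25 over large-subunit genes, with 34 of 49 at an unadjusted p under 0.05 in the higher direction and 7 without overlap of the groups. For small-subunit genes the median was 0.21, with 16 of 25 and 3. Over all genes, 9.01% were higher at that p and 2.08% had every PexRAP-AKO library above every Control library. Genes classed as bacterial homologs had a median of 0.25 (31 of 45), and those classed as mitochondria-specific had 0.20 (19 of 29). The mitochondria-specific class is not free of bacterial relatives. It holds Mrps18a and Mrps18b, which are related to a bacterial protein, and also Mrpl44 and Mrpl58. The mitochondria-specific genes of the small subunit were lowest, with a median of 0.16 and 5 of 9. These differences between subgroups were not tested. Members with no overlapping annotated gene had a median of 0.25 (28 of 39), and those with a gene on the opposite strand had 0.24 (21 of 32).

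Per kilobase of exon, the members spanned a wide range of levels. The mean over all 10 libraries was highest for Mrps21, at 59.4 ± 6.25 CPM per kilobase (SD over 10 libraries), followed by Mrpl20 at 52.4 ± 9.13. Mrpl2, a large-subunit protein near the catalytic centre, followed at 44.5 ± 5.94, and Mrpl34, a very short protein with a bacterial homolog, at 41.0 ± 9.90. The median member stood at 10.4. At the bottom were Mrpl23, of the rim of the exit tunnel, at 0.297 ± 0.0505, Mrps33 at 1.85 ± 0.515, Mrpl48 at 2.30 ± 0.214 and Mrps10 at 2.42 ± 0.159. Adjacent members at the top and among the last 3 differed by less than the larger of their SDs, whereas Mrpl23 was far below the rest, with 12 to 33 counts per library. With the longest transcript as the length in place of all exons joined, Mrpl20 was first at 108 and Mrps21 second at 90 CPM per kilobase, and Mrpl23 was still last at 0.391.

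Larger and smaller differences were found at both ends of this range. Mrpl34 at the top of the range held 18.8, 24.7, 26.9, 17.8 and 16.7 CPM in Control and 22.3, 30.3, 32.3, 33.6 and 25.6 CPM in PexRAP-AKO, a log2 fold change of 0.45 (SE 0.15). Mrpl2, at a like level per kilobase, held 46.0, 57.9, 53.9, 48.4 and 38.0 CPM against 50.5, 62.5, 52.0, 58.1 and 53.5 CPM, a log2 fold change of 0.18 (SE 0.10). Both overlapped between groups. Among the scarcest, Mrps33, a small-subunit protein that bacteria lack, had 2.13, 3.47, 2.76, 2.44 and 1.85 CPM against 3.64, 4.68, 3.04, 3.86 and 2.90 CPM (log2 fold change 0.50, SE 0.20). Mrpl23 had 1.02, 1.16, 1.66, 1.38 and 1.61 CPM against 1.62, 1.76, 1.22, 1.62 and 1.48 CPM (log2 fold change 0.17, SE 0.19). Mrpl48 and Mrps10 differed by 0.10 (SE 0.09) and 0.06 (SE 0.07) on the log2 scale, with overlapping groups.

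**Figure D3:**
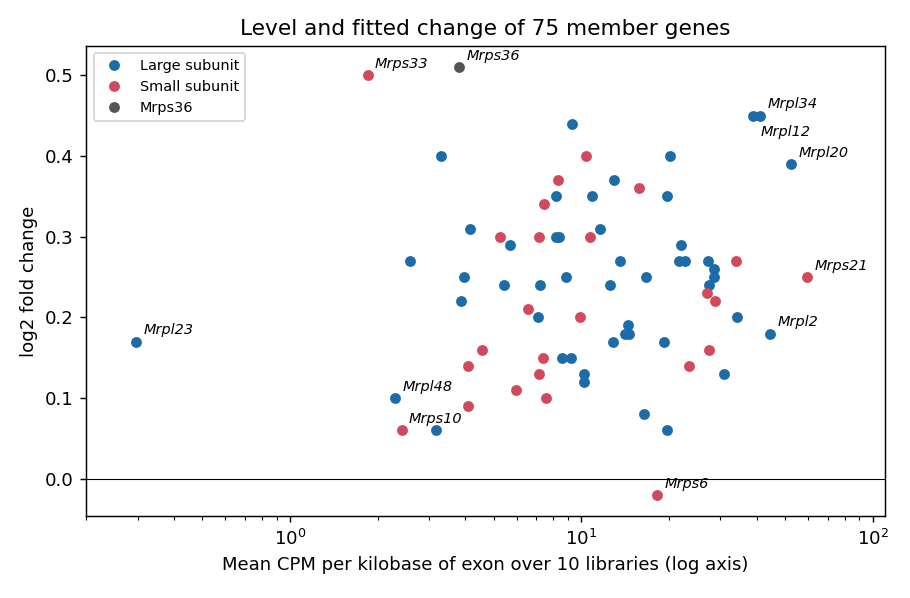
Mean level of each of 75 members over 10 libraries (CPM per kilobase of exon, log x axis) against its fitted log2 fold change (y axis); blue, large subunit; red, small subunit; grey, Mrps36. Genes with large differences are found at both ends of the level range (Mrps33 at 1.85 and Mrpl34 at 41.0 CPM per kilobase), and Mrpl23 lies far to the left.

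The spread within groups also varied. The pooled within-group SD of log2 CPM had a median of 0.15 and ran from 0.07 to 0.35. It was widest for Mrps6 (0.35), Mrps36 (0.32), Mrpl47 (0.31) and Mrps33 (0.30), of which Mrps36 and Mrps33 had few counts. Mrpl47, whose gene lies between Actl6a and Ndufb5 on the opposite strand and overlaps both, had 12.3, 13.5, 15.9, 11.1 and 10.1 CPM in Control and 11.3, 18.5, 16.8, 22.1 and 14.6 CPM in PexRAP-AKO. Its estimate was 0.40 (SE 0.17), with PexRAP-AKO replicate 5 far above replicate 1. Spread was narrowest for Mrps25 and Mrpl32 (both 0.07) and for Mrps28 and Mrps21 (both 0.08). Mrpl32, which the m-AAA protease trims before it joins the large subunit, had 17.4, 17.3, 17.2, 19.5 and 17.4 CPM in Control and 20, 22.1, 20.2, 21.1 and 20 CPM in PexRAP-AKO. Control replicate 7 was the nearest to PexRAP-AKO, and the groups did not overlap (log2 fold change 0.22, SE 0.07, edgeR adjusted p = 0.175). Mrps25, of the small subunit, had 28.4, 28.5, 29.3, 29.0 and 26.4 CPM against 31.7, 34.6, 30.7, 31.0 and 30.0 CPM (0.16, SE 0.06). Mrps28 had 21, 21, 18.9, 21.8 and 19.2 CPM against 23.7, 23.7, 21.8, 22.9 and 21.3 CPM, with Control replicate 7 inside the PexRAP-AKO range.

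The 12 members that DESeq2 called were Mrpl10, Mrpl12, Mrpl13, Mrpl17, Mrpl20, Mrpl30, Mrpl41, Mrpl51, Mrpl57, Mrps18c, Mrps21 and Mrps24. With 1 surrogate variable in the edgeR fit, an alternative added after the data were seen, 3 members were called higher (Mrpl30, Mrpl57 and Mrps18c), against 0.838% of all genes. Mrpl20 then had an adjusted p of 0.0531. Which members passed thus varied with the tool. The median over members lay between 0.17 and 0.27 in the alternatives, and single members moved further, such as Mrpl34 from 0.19 to 0.56 and Mrpl12 from 0.23 to 0.53.

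The mitochondrial ribosomal proteins named outside the symbol rule were also higher on balance. Of Dap3, Ptcd3, Chchd1, Aurkaip1 and Gadd45gip1, 4 of 5 were higher at an unadjusted p under 0.05, against 9.01% of all genes. In edgeR 0 passed after adjustment. Ptcd3, a small-subunit protein of the pentatricopeptide repeat family, had 47.2, 50.7, 45, 44.8 and 38.7 CPM in Control and 46.9, 64.2, 64.4, 64.9 and 54.5 CPM in PexRAP-AKO. PexRAP-AKO replicate 1 was inside the Control range (log2 fold change 0.38, SE 0.10, edgeR adjusted p = 0.143, DESeq2 adjusted p = 0.0259). Aurkaip1 had 72.5, 79.2, 75.7, 76.2 and 64.4 CPM against 84.7, 90.2, 83.1, 82.8 and 81.1 CPM, without overlap (0.20, SE 0.06). Dap3, a GTP-binding protein of the small subunit, differed by 0.17 (SE 0.06), Chchd1 by 0.29 (SE 0.11) and Gadd45gip1, of the large subunit, by 0.14 (SE 0.11).

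The rest of the mitochondrial translation machinery had lower medians than the members, a difference that was not tested. Translation factors had a median log2 fold change of 0.17. Of them, 6 of 15 (40%) were higher at an unadjusted p under 0.05, against 9.01% of all genes. Gfm1, the elongation factor that moves the ribosome along the mRNA, differed by 0.39 (SE 0.10), and Taco1, an activator of cytochrome oxidase translation, by 0.37 (SE 0.10). Assembly and rRNA modification factors had a median of 0.08, with 4 of 25 (16%) at that p, against the same 9.01%. The 2 of smallest p were Mrm3, an rRNA methyltransferase (0.35, SE 0.10), and Mterf4, which brings a methyltransferase to the large subunit (0.23, SE 0.07). The genes that charge mitochondrial tRNAs had a median of 0.09, with 3 of 20 (15%), against 9.01%. Yars2 (0.30, SE 0.12) and Rars2 (0.22, SE 0.09) had the smallest p among them. The highest estimate of that list, 1.25 (SE 0.96, edgeR adjusted p = 0.578), was that of the leucyl-tRNA synthetase gene Lars2, named after its value was seen. Lars2 had 124, 117, 70.7, 634 and 73.6 CPM in Control and 46.4, 1258, 617, 398 and 92.7 CPM in PexRAP-AKO, so that 1 Control and 3 PexRAP-AKO libraries were at 398 CPM or above and the groups overlapped. Its estimate was 0.50 without PexRAP-AKO replicate 2 and 2.32 without Control replicate 7. In these 3 lists, 0 genes were lower at that p, and 0 passed edgeR's adjusted threshold. DESeq2 called 2 of the 15 translation factors higher, Gfm1 (adjusted p = 0.0258) and Taco1 (adjusted p = 0.0279). It called 3% of all genes with a DESeq2 adjusted p higher.

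The ribosome's RNAs and its products come from mitochondrial DNA. The rRNAs mt-Rnr1 and mt-Rnr2 differed by 0.16 (SE 0.19) and 0.22 (SE 0.15), with overlapping groups; PexRAP-AKO replicate 1 was lowest of all 10 libraries for both. rRNA counts also depend on how libraries were depleted or selected, and that step was not given in the sources used here. Of 13 mitochondrial mRNAs, 7 had enough counts to test and 5 were at 0 in every library. The 7 had a median of 0.33. In edgeR 2 (28.6%) were higher at an unadjusted p under 0.05, against 9.01% of all genes, and 0 passed the adjusted threshold. DESeq2 had 5 higher at that p, against 1333 of all 14913 genes. It called 1 higher, mt-Nd1 (DESeq2 adjusted p = 0.047), against 3% of all genes with a DESeq2 adjusted p. The 2 in edgeR were mt-Nd1 (0.63, SE 0.21) and mt-Cytb (0.50, SE 0.17). mt-Nd1 was at 2232, 2078, 1865, 1758 and 1915 CPM in Control and at 1646, 3225, 4325, 3499 and 2592 CPM in PexRAP-AKO, so that PexRAP-AKO replicate 1 was below every Control library and the 4 others above. Tfam, which packages and transcribes mitochondrial DNA, had 34.5, 32.1, 32.5, 32.1 and 31.7 CPM against 35.5, 35.8, 39.8, 39.1 and 37.3 CPM (0.20, SE 0.06, edgeR adjusted p = 0.152). Over the 8 genes of mitochondrial DNA maintenance and transcription the median was 0.09. Of these, 1 (12.5%) was higher at an unadjusted p under 0.05, near the 9.01% of all genes.

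The transcripts of NRF1 and GABPA, whose motifs were searched, had small estimates. Nrf1 was at 31.0 ± 1.98 CPM in Control mice and 30.2 ± 1.13 CPM in PexRAP-AKO mice (SD, n = 5 each), and Gabpa at 56.4 ± 4.19 and 61.4 ± 7.38 CPM. Their log2 fold changes were -0.04 (SE 0.06) and 0.12 (SE 0.08). Yy1 was at 55.3 ± 2.18 and 50.1 ± 2.05 CPM, a log2 fold change of -0.14 (SE 0.05, edgeR adjusted p = 0.219). Esrra, encoding an estrogen-related receptor, differed by 0.33 (SE 0.15, edgeR adjusted p = 0.309), and Ppargc1a, the coactivator that drives mitochondrial gene programmes, by 0.43 (SE 0.15, edgeR adjusted p = 0.225). Ppargc1a had 29.2, 29.1, 28.4, 26.4 and 17.9 CPM in Control and 28.9, 33.5, 40.9, 43.6 and 29.9 CPM in PexRAP-AKO. Control replicate 8 was the lowest and PexRAP-AKO replicates 3 and 5 the highest. Ppargc1b (0.03, SE 0.18), Pprc1 (0.07, SE 0.13), Gabpb1 (-0.08, SE 0.09) and Myc (-0.15, SE 0.15) had estimates within their SE or close to it.

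Set beside other large complexes, the members lay between those of the respiratory chain and those of the cytosol. The 36 nuclear subunits of complex I, whose mitochondrially encoded partners are products of this ribosome, had a median log2 fold change of 0.35. Of them, 34 of 36 (94.4%) were higher at an unadjusted p under 0.05, against 9.01% of all genes. Groups did not overlap for 5 of the 36 (13.9%), near the 13.3% of members, against 2.08% of all genes. Ndufa10 (0.34, SE 0.08) and Ndufb3 (0.29, SE 0.07), the 2 of smallest p, were among those 5. Cytosolic ribosomal proteins had a median of 0.08, with 2 of 77 (2.6%) higher at that p, Rpl41 (0.19, SE 0.09) and Rps19 (0.13, SE 0.06). Neither list had a gene past the adjusted threshold in edgeR. DESeq2 called 9 complex I genes and 0 cytosolic ribosomal genes higher, against 3% of all genes with a DESeq2 adjusted p. The difference between these lists was not tested.

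**Figure D4:**
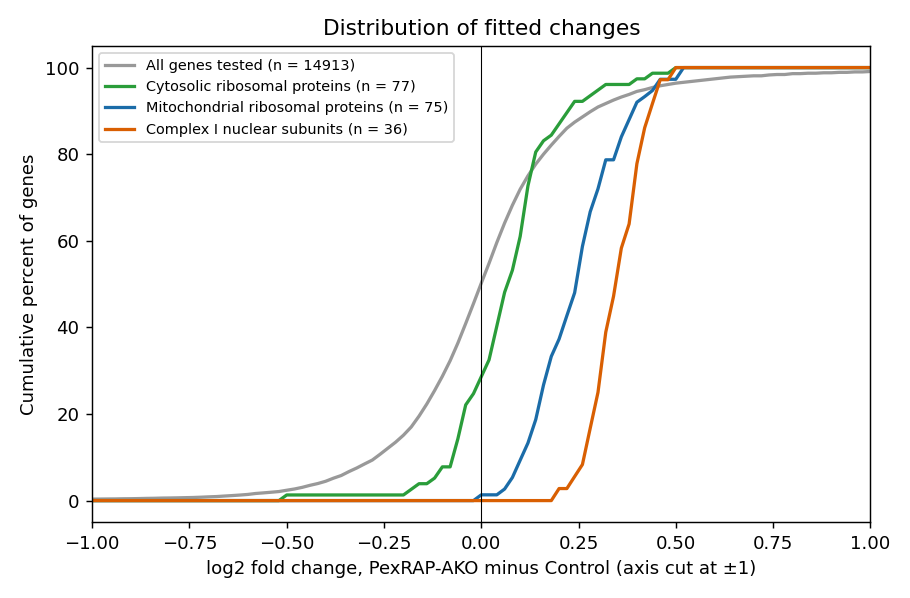
Cumulative percent of genes (y axis) at or below each log2 fold change (x axis, from -1 to 1) for all 14913 genes tested, 77 cytosolic ribosomal, 75 mitochondrial ribosomal and 36 complex I genes. The curves reach 50 percent near the medians of -0.00, 0.08, 0.24 and 0.35.

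Markers of mitochondria-rich adipocytes moved in part with the members. The mean log2 CPM of 13 brown adipocyte markers was 4.90, 5.31, 6.23, 3.53 and 3.13 in Control and 4.35, 5.74, 6.61, 6.56 and 5.73 in PexRAP-AKO. Summed over the 14 listed genes, they ran from 294 to 2394 CPM in Control and from 639 to 3110 CPM in PexRAP-AKO, and 0 of them were at 0 in every library. All 13 tested had positive estimates (median 0.87), with 3 (23.1%) higher at an unadjusted p under 0.05, against 9.01% of all genes. Of these markers, 0 passed the adjusted threshold in edgeR or DESeq2. Ucp1, the uncoupling protein that defines brown and beige adipocytes, had 319, 381, 1159, 40.6 and 28.6 CPM in Control and 94.1, 519, 1603, 1371 and 608 CPM in PexRAP-AKO. Control replicates 7 and 8, the lowest in brown markers, were also the lowest in the members' mean. PexRAP-AKO replicate 1, by contrast, was below Control replicates 2, 3 and 5 in brown markers, and its members' mean of 4.75 was above all 5 Control libraries. With the brown marker score as a covariate, 74 of 75 members had a positive estimate, the median was 0.17, and 22 were higher at an unadjusted p under 0.05 instead of 51, while the share over all genes was 5.2% instead of 9.01%. The list itself holds genes of mitochondrial proteins and Ppargc1a. In tissue RNA, more cells of a type and more RNA per cell cannot be told apart.

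Skeletal muscle markers ran the other way. The sum of 12 genes ranged from 16.2 to 1312 CPM in Control and from 10.5 to 120 CPM in PexRAP-AKO, and none of the 12 (count 0) was at 0 in every library. Of 11 tested, 7 were lower at an unadjusted p under 0.05, against 6.44% of all genes, and 0 passed after adjustment in edgeR or DESeq2. Their mean log2 CPM was 4.44, 0.04, 4.08, 1.36 and 5.80 in Control and 2.29, -0.40, 2.55, 1.95 and 2.82 in PexRAP-AKO. Control replicate 8 had the most muscle signal and the lowest members' mean, and PexRAP-AKO replicate 2 the least muscle signal and the highest members' mean. Control replicate 3 was also nearly free of muscle signal, and its members' mean of 4.72 was the highest of Control. Control replicates 5 and 7 did not follow that order. Replicate 5 had more muscle signal than replicate 7 (4.08 against 1.36) and also the higher members' mean (4.70 against 4.56). With the muscle score as a covariate the median was 0.19 and 31 members were higher at an unadjusted p under 0.05, against 7.48% of all genes. T cell markers summed to 7.32 to 13.2 CPM in Control and 9.49 to 80.5 CPM in PexRAP-AKO, with the highest mean in PexRAP-AKO replicate 6, whose members' mean was the lowest of its group. B cell markers ran from 2.92 to 54.0 and from 5.14 to 113 CPM. Other marker lists had smaller medians: 0.17 for macrophages, -0.21 for endothelium, -0.10 for white adipocytes and 0.01 for progenitors, against 1.52 for T cells and 1.16 for B cells. None of these lists (count 0) had a gene past edgeR's adjusted threshold. DESeq2 called 1, the white adipocyte marker Cfd, lower (log2 fold change -0.47, DESeq2 adjusted p = 0.000492, edgeR adjusted p = 0.135). At an unadjusted p under 0.05, 3 of 6 T cell markers were higher, against 9.01% of all genes. At that p 3 of 8 endothelial and 1 of 10 white adipocyte markers were lower, against 6.44% of all genes. The white adipocyte share was near that of all genes. Of 6 epithelial markers, 0 had enough counts to test; their sum was 37.0 CPM in PexRAP-AKO replicate 6, 6.91 CPM in Control replicate 7 and at most 0.806 CPM in the 8 others. The part of these cell types in the members' difference was not tested beyond the 2 covariate fits.

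**Figure D5:**
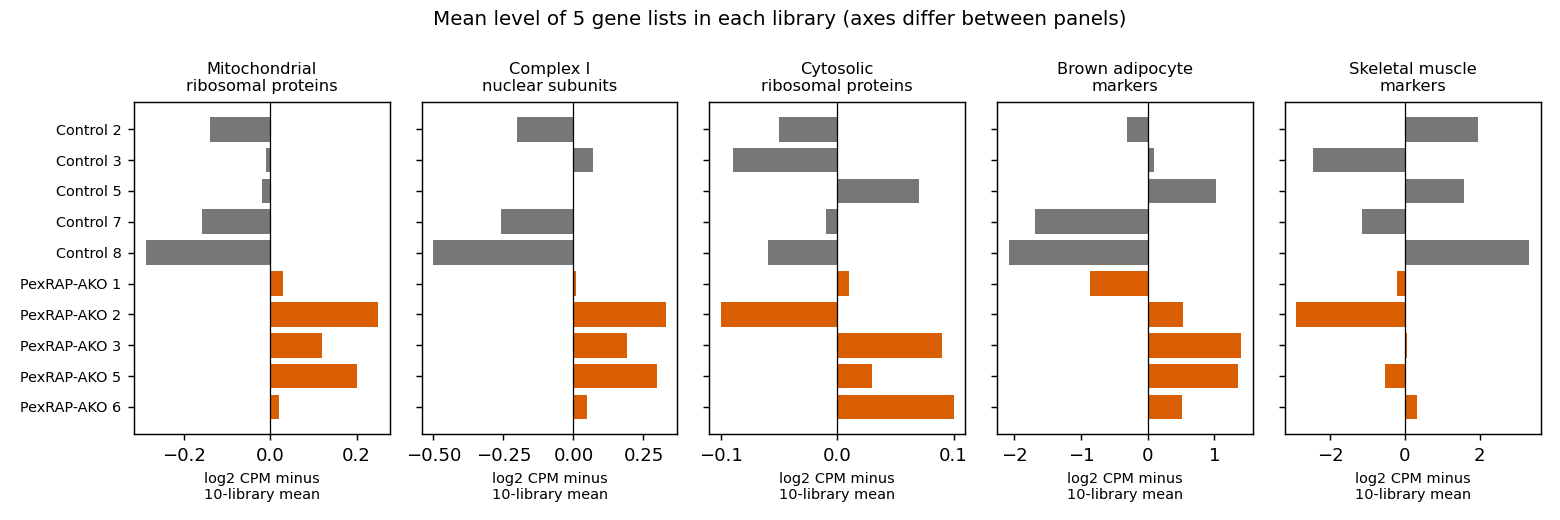
Mean log2 CPM of 5 gene lists in each library, minus the mean over 10 libraries (x axes differ between panels; grey, Control; orange, PexRAP-AKO). With TMM scaling, all 5 PexRAP-AKO bars lie above all 5 Control bars for the mitochondrial ribosomal proteins, but not for the 4 other lists. The small-subunit genes alone (not shown) did not keep that order.

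The scale of counts mattered for the size of the difference. TMM scaling factors were 1.001 to 1.062 in Control and 0.9329 to 1.003 in PexRAP-AKO. Scaled by library total alone, 71 of 75 members had a positive estimate, their median was 0.17 and the median of all genes -0.07, a distance of 0.24. Under that scaling 25 members were higher at an unadjusted p under 0.05, against 4.29% of all genes, and Mrpl49, Mrps10 and Mrps30 joined Mrps6 below 0, with estimates of -0.01 each. With DESeq2's size factors or upper-quartile scaling, 74 of 75 members had positive estimates.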

How the data were processed

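Raw counts of reads per gene in 10 libraries were deposited. The authors' tools, per the submitters' processing notes, were STAR 2.0.4b, Subread with featureCounts, and edgeR; neither build, annotation nor strand setting was given in the sources used here. The 40724 rows included 117 identifiers repeated with identical counts, each kept once. Coordinates and exon lengths come from GENCODE M21 (GRCm38), which held 99.6% of identifiers. Counts were scaled by TMM (edgeR 4.0.16, R 4.3.3) and filtered with filterByExpr (minimum count 10, minimum total 15), leaving 14913 genes. Groups were compared by edgeR's quasi-likelihood test, with robust dispersions and no covariate, Benjamini-Hochberg adjusted over all genes, at 0.05. The SE is the size of the log2 fold change over the square root of F. Log2 CPM used a prior count of 2. The fit was also run on simulated counts with changes larger than that of any member, so that run does not cover differences of the members' size. Alternatives were other scalings and filters, DESeq2 1.42.0, limma 3.58.1 voom, sva 3.50.0, 2 marker scores as covariates, the replicate number as block, and each library left out.

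Members and lists were chosen with earlier results of these data known. Values per library are given for the 8 members with the smallest p, those with the highest and lowest levels, the widest and narrowest spread, the negative estimate, and those with an unusual place in the ribosome; Mrpl12 was added after its values were seen. Other named genes are Dhrs7b, the 5 ribosomal genes outside the symbol rule, the regulators, the rRNAs and up to 2 genes per list by p; Slc5a3, Ucp1, Lars2 and Cfd were chosen after values were seen. No library repeated another (smallest chi-square per degree of freedom between replicates 7.73). The labels do not say more of the replicates' origin, so p-values measure the spread between these samples.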

Additional observations from a re-analysis of the deposited data

Results flagged for a closer look

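In groups of 5 libraries, values lying far from the others of their group (Dixon's criterion) were found in 8 of 150 groups of member values, where chance alone gives about 1 in 20, or 7.5. Values are log2 CPM. Mrpl10 was high in PexRAP-AKO replicate 2, at 5.83 against 5.64 for the nearest, and Mrpl44, an RNase III-like protein of the large subunit, was high in the same library, at 4.85 against 4.61. Mrpl24 was low in PexRAP-AKO replicate 3, at 5.05 against 5.26. Mrpl38 and Mrps30 were low in Control replicate 8, at 4.97 against 5.14 and 4.17 against 4.39. Mrpl32 was high in Control replicate 7, at 4.30 against 4.14, and Mrpl28 in Control replicate 3, at 5.36 against 5.15. Mrps6 was low in Control replicate 5, at 4.22 against 4.86.

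Among the other genes named, Control replicate 8 was low in Gadd45gip1 (3.31), in Ppargc1a (4.17) and in the mean of the mitochondrial DNA maintenance list (3.91). Tfam was high in Control replicate 2 (5.12), Lars2 in Control replicate 7 (9.31), Yy1 in PexRAP-AKO replicate 6 (5.75) and Rpl41 in Control replicate 5 (7.13). PexRAP-AKO replicate 2 was low in the muscle gene Pvalb (-2.28) and in the muscle marker mean (-0.40). PexRAP-AKO replicate 6 was high in the T cell marker mean (3.46).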

How the results depend on the processing

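Member estimates kept their sign in all but 13 of 1722 refits. The exceptions were Mrpl48 (-0.00) and Mrps6 (0.26) with the brown marker score, Mrpl49, Mrps10 and Mrps30 (-0.01 each) with scaling by library total alone, Mrps30 (-0.04) with the replicate block, and Mrps6 (0.08) without PexRAP-AKO replicate 6 and Control replicate 8, or between -0.18 and 0.08 with single libraries left out. Ppargc1b turned to -0.23 with the brown score, -0.00 in limma voom and with the block, -0.04 with total scaling and -0.11 without that pair, and ran from -0.09 to 0.13 with single libraries left out. Pprc1 ran from -0.03 to 0.14 in the latter, Pvalb was 0.12 with the muscle score, and with the brown score Ucp1 was -0.37 and mt-Rnr1 -0.03. Pvalb is itself part of the muscle score, and Ucp1 marks the cells of the brown score, so their changes are partly built in.

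The count of members called was 12 in DESeq2, 3 with the surrogate variable, 1 with voom quality weights and 1 at an adjusted p under 0.1, and 0 in the 20 other alternatives. Members at an unadjusted p under 0.05 (51) numbered 22 with the brown score, 31 with the muscle score, 25 with total scaling, and 32 to 52 with single libraries left out. Members without overlap (10) numbered 2 with total scaling, 17 without PexRAP-AKO replicate 6 and Control replicate 8, and 10 to 26 with single libraries left out. Genes called over the whole table (15) numbered 439 in DESeq2, which gave no adjusted p for 4626 genes, 150 with the surrogate variable, 107 with voom quality weights, 98 at an adjusted p under 0.1, 26 without the filter, 7 with the brown score, 6 with the muscle score, 5 without that pair, and 3 to 58 with single libraries left out. The causes were not tested. The median of the members stayed between 0.17 and 0.27 and Dhrs7b between -2.14 and -1.97, called in 23 of 23 alternatives.

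The groups share replicate numbers 2, 3 and 5. Same-numbered libraries had correlations of deviations of -0.021, -0.081 and 0.36, and were therefore not treated as pairs. With the replicate block on those 6 libraries, 3 genes were called and 32 members were at an unadjusted p under 0.05, against 2 and 39 in the same 6 without it.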
